A study of Mus musculus with 18 samples.

Results

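The 9 genes described here encode receptor chains, kinases, a transcription factor and feedback or effector proteins of the gp130 and STAT3 pathway: Il6st, Osmr, Lifr, Jak1, Jak2, Stat3, Socs3, Pim1 and Pim3. They were taken by symbol from a deposited table of 21638 genes, in which each symbol was found, and their levels were followed in 18 libraries. All 9 passed the filter on low counts, as did 17094 genes in all. The members were chosen by symbol with earlier results of these libraries known, and the rule does not record which measured values it drew on. The fold changes and adjusted p-values of the 9 genes are therefore descriptions, and no statement rests on the number of them that moved.

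Il6st encodes gp130, the signalling receptor chain shared by the interleukin-6 family of cytokines. On ligand binding gp130 pairs with a partner such as the oncostatin M receptor (Osmr) or the leukaemia inhibitory factor receptor (Lifr), the receptor-bound kinases Jak1 and Jak2 are activated, and STAT3 is phosphorylated and moves to the nucleus. STAT3 induces Socs3, which blocks the receptor complex, and the Pim genes, which encode serine/threonine kinases that promote survival and growth. In brain endothelium the pathway is known to respond to inflammatory cytokines after injury. Phosphorylation of STAT3 cannot be read from messenger RNA.

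The libraries came from cortical endothelial cells of adult mice, sorted as positive for CD31 and negative for CD41 and CD45. The mice had a sham operation or MCAO, an occlusion of the middle cerebral artery that models ischaemic stroke, and cells were collected on day 7. All groups were labelled as given tamoxifen at 75 mg/kg. The design gives 5 doses from day 0 to day 4 for the mice with a deletion, and the same schedule is taken here for all groups. There were 6 groups of 3 libraries: sham ipsilateral and contralateral and MCAO ipsilateral and contralateral, all labelled WT, and 2 groups of ipsilateral libraries from occluded mice with an endothelial deletion. These are called Hdac2 ECKO and Ezh2 ECKO, for Hdac2lox/lox or Ezh2lox/lox alleles with Cdh5CreERT2, a tamoxifen-inducible recombinase driven by the endothelial Cdh5 promoter. Ipsilateral is the operated side. The WT label gives no Cre to the sham and MCAO mice, so deletion and the presence of Cre cannot be told apart. The labels do not say whether libraries of a group came from separate animals or whether the sides share a mouse, so the p-values measure the spread between these libraries, which may in part be technical.

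Total counts ran from 25791401 to 57576255 per library, and 3 counts corresponded to between 0.0619 and 0.101 CPM. CPM is the count of a gene per 1000000 of the library total after scaling by the trimmed mean of M-values. The endothelial markers summed to between 12180 and 28600 CPM with none of the 10 at 0, against 0.684 to 8.85 CPM for 6 neuron markers, 30.7 to 91.1 CPM for 6 astrocyte markers and 2.59 to 25.4 CPM for 8 microglia and macrophage markers. Oligodendrocyte markers reached 188 CPM and pericyte and smooth muscle markers 171 CPM. Red cell transcripts summed to between 19220 and 297800 CPM in the 15 libraries outside Ezh2 ECKO, above the endothelial sum in each of them, and to between 71.0 and 671 CPM in Ezh2 ECKO. Counts on 1466 olfactory and vomeronasal receptor genes, a measure of diffuse background, were taken per 1000000 of the library total without that scaling. They were highest in Ezh2 ECKO replicate 2 (2083) and MCAO contralateral replicate 1 (1889) and lowest in MCAO contralateral replicate 3 (152). The deletions were not visible in whole-gene counts. Hdac2 was at 57.5, 85.0 and 87.9 CPM in the Hdac2 ECKO-labelled libraries and at 84.4, 68.2 and 96.1 CPM in MCAO ipsilateral. Ezh2 was at 12.0, 19.7 and 8.41 CPM in the Ezh2 ECKO-labelled libraries and at 4.44, 7.02 and 7.84 CPM in MCAO ipsilateral. Neither deposited gene value separates the floxed exons from the rest of the transcript, so the deletions are used below as labelled.

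The promoters of 4 genes described most closely below are printed here, so that the letters can be read beside the levels: Pim3 and Socs3, and the neighbouring receptor genes Osmr and Lifr. They are RefSeq sequences on GRCm38.p6, from 250 bases before to 50 bases after a gene's start, in the direction of transcription. Lifr and Pim1 have a further RefSeq window each, and the starts used for the 4 genes shown lie inside their deposited bounds, by a few bases for Pim3 and by more for Socs3, Osmr and Lifr. Capitals mark 3 searched motifs on either strand: TTCNNNGAA, the palindrome bound by STAT dimers, TGANTCA, a loose AP-1 pattern with any middle letter, and GGGCGG, the GC box, or its reverse complement CCGCCC. The AP-1 and STAT motifs read the same on both strands, and no overlap between different motifs occurs in the sequences shown.
Socs3, minus strand, chr11:117969317-117969616: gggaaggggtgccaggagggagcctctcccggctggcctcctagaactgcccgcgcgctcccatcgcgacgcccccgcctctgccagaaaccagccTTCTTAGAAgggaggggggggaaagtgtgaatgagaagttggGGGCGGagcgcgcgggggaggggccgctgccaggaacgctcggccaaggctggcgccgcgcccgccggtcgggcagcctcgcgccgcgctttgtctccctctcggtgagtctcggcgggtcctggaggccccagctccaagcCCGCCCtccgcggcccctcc
Pim3, plus strand, chr15:88861944-88862243: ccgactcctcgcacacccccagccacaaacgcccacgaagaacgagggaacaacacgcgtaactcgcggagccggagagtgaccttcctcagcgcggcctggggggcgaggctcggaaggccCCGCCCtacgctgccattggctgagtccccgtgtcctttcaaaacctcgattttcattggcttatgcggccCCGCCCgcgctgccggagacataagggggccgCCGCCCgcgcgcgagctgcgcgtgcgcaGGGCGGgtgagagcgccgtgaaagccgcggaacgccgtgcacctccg
Osmr, minus strand, chr15:6874264-6874563: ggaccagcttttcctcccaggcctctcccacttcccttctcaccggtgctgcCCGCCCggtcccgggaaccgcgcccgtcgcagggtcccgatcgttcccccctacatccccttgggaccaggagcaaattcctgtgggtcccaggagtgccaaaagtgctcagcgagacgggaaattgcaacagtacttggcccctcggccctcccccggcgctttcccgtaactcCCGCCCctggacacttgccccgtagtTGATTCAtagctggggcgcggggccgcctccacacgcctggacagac
Lifr, plus strand, chr15:7129322-7129621: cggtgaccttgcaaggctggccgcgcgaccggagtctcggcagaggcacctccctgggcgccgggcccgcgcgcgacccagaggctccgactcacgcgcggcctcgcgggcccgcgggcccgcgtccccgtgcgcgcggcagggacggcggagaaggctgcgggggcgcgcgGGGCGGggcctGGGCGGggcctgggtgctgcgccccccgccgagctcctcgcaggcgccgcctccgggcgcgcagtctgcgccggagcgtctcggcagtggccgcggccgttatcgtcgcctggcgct
Socs3 held the only STAT motif among the 9 genes' promoter windows, TTCTTAGAA, 154 bases before the start. That motif was found in 8.30% of 32851 RefSeq promoter windows of the same length. Osmr held the only match to the loose AP-1 pattern, TGATTCA, 3 bases after the start, against 7.81% of all windows. Because the search left the middle letter open, this match is not shown to be an AP-1 site. A GC box was found in at least 1 window of each of the 9 genes, but not in the further windows of Lifr and Pim1. Of all windows 35.7% held one, a share that counts windows and not genes. Pim3 held 4 GC boxes and Pim1 7. A match is a description of the letters in these windows and does not show that a factor binds there.

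Per kilobase of the deposited gene length, mean levels over the 18 libraries were highest for Jak2 (13.1 CPM per kb) and Pim3 (11.9), followed by Jak1 (9.69), Osmr (8.65), Lifr (8.52), Il6st (6.54), Socs3 (5.47), Stat3 (4.91) and Pim1 (2.67). The highest library exceeded the lowest by 11.7-fold for Pim3, 7.45-fold for Socs3, 6.97-fold for Lifr and 5.26-fold for Pim1, but by 2.07-fold for Il6st and 2.19-fold for Jak2.

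**Figure D1:**
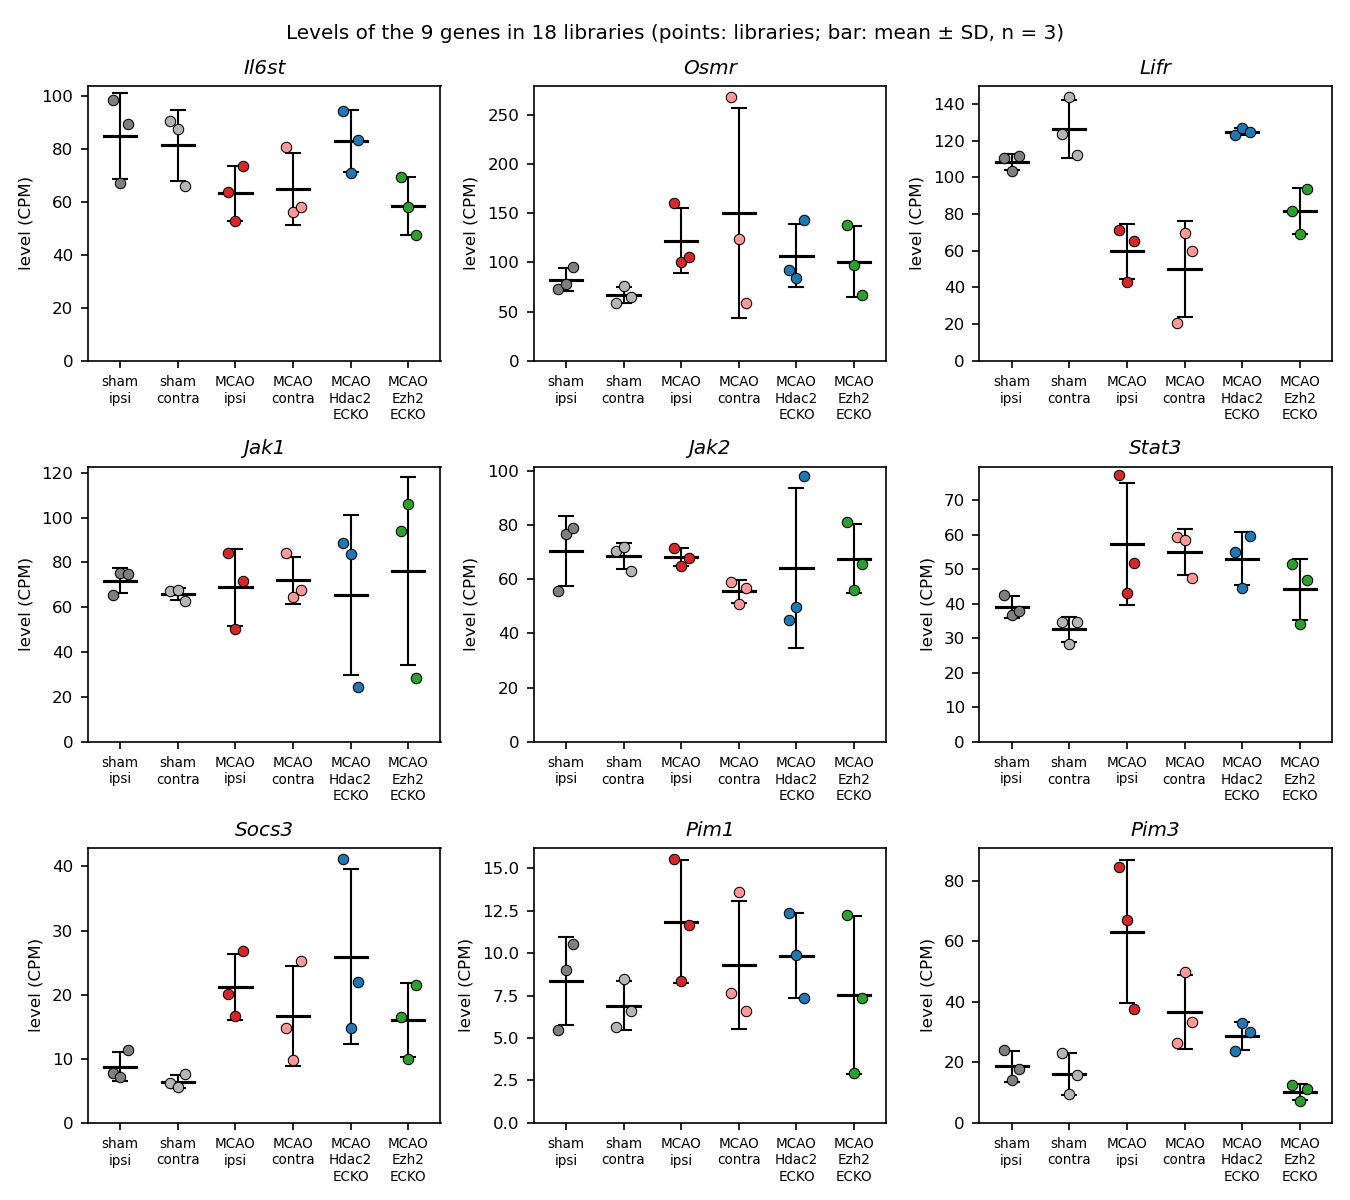
Level of each of the 9 genes (CPM, linear axis from 0) in every library, by group; points are libraries, the horizontal bar is the mean and the error bar the SD of 3 libraries. Pim3, Socs3 and Stat3 sit higher and Lifr lower in the MCAO groups than in sham, Lifr lies within the sham range in the Hdac2 ECKO-labelled libraries, and Pim3 is lowest in the Ezh2 ECKO-labelled set.

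The receptor chains differed in the direction of their MCAO and sham values, and 0 of the 3 passed edgeR's test, while DESeq2 called Lifr over both sides. The shared chain gp130 (Il6st, chromosome 13, 112464070 to 112510086) was at 98.4, 67.0 and 89.3 CPM in sham ipsilateral and at 63.8, 52.7 and 73.4 CPM in MCAO ipsilateral. It was at 90.4, 87.4 and 65.9 CPM in sham contralateral and at 80.5, 56.3 and 58.0 CPM in MCAO contralateral. The groups overlapped on each side, and over both sides the log2 difference, MCAO minus sham, was −0.37 ± 0.21 (SE, n = 6 libraries against 6, edgeR adjusted p = 0.651).

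Osmr (chromosome 15, 6813577 to 6874969), the receptor chain that binds oncostatin M with gp130, was at 72.9, 78.4 and 95.7 CPM in sham ipsilateral and at 160.4, 101 and 105 CPM in MCAO ipsilateral. All 3 MCAO ipsilateral libraries lay above all 3 sham ones. On the contralateral side it was at 59.0, 75.7 and 65.3 CPM in sham and at 268, 124 and 58.6 CPM after MCAO. The contralateral MCAO libraries held both the highest and the lowest Osmr level of all 18, and the highest was the library with the second most background counts. The log2 differences were 0.57 ± 0.42 on the ipsilateral side and 1.17 ± 0.42 on the contralateral side (SE, edgeR adjusted p = 0.783 and 0.920). Their difference, ipsilateral minus contralateral, was −0.61 ± 0.59 (adjusted p = 0.941), and without MCAO contralateral replicate 1 it was 0.11.

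Lifr (chromosome 15, 7090614 to 7197489), the chain that binds leukaemia inhibitory factor, had lower values after MCAO. It was at 110.4, 103 and 112 CPM in sham ipsilateral and at 71.1, 42.7 and 65.1 CPM in MCAO ipsilateral. It was at 123, 144 and 112 CPM in sham contralateral and at 20.6, 69.8 and 59.9 CPM in MCAO contralateral. Every MCAO library of either side lay below every sham library. The log2 differences were −0.86 ± 0.36 ipsilateral and −1.33 ± 0.36 contralateral (SE, edgeR adjusted p = 0.645 and 0.920), and over both sides −1.10 ± 0.25 (adjusted p = 0.0803), a 2.14-fold lower level. DESeq2 gave an adjusted p of 0.00132 for the same comparison, and edgeR gave 0.0459 with RLE scaling, 0.0129 with the background covariate and 0.0267 without MCAO contralateral replicate 1. In most fits Lifr was not called, the count being 5 of 26. The edgeR adjusted p was 0.162 with the replicate block and 0.153 with the sides summed. It was 0.303 without MCAO ipsilateral replicate 2. Of 7 markers of pericytes and smooth muscle 0 were called over both sides by edgeR, beside 0.152% of all genes, and 3 were lower at an unadjusted p under 0.05, beside 9.09% in either direction. They summed to between 86.2 and 171 CPM in the sham libraries, between 12.0 and 88.1 CPM in the MCAO libraries and between 19.1 and 67.6 CPM in the Hdac2 ECKO-labelled libraries, with 0 to 3 of the 7 at 0. Their part in the Lifr values was not tested, and in bulk libraries fewer cells of a type and less RNA per cell cannot be told apart.

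The gene lengths allow the receptor chains to be set against each other. Osmr and Lifr are neighbours on chromosome 15, 215644 bases apart on GRCm38, and RefSeq places 3 genes between them, of which 0 are protein coding. The ratio of Osmr to Lifr, each per kilobase, was 0.675 ± 0.0875 in sham ipsilateral and 0.470 ± 0.0459 in sham contralateral (SD, n = 3 each). It was 2.01, 2.10 and 1.44 in MCAO ipsilateral and 11.6, 1.58 and 0.871 in MCAO contralateral. Osmr thus exceeded Lifr in 5 of the 6 MCAO libraries and in 0 of the 6 sham libraries. In the Hdac2 ECKO-labelled libraries the ratio was 0.666, 0.594 and 1.03, and in the Ezh2 ECKO-labelled set it was 1.51, 1.25 and 0.634. Across the 18 libraries the log2 levels of the neighbours had a Pearson correlation of −0.61, a description over libraries that share groups and differ in background.

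**Figure D2:**
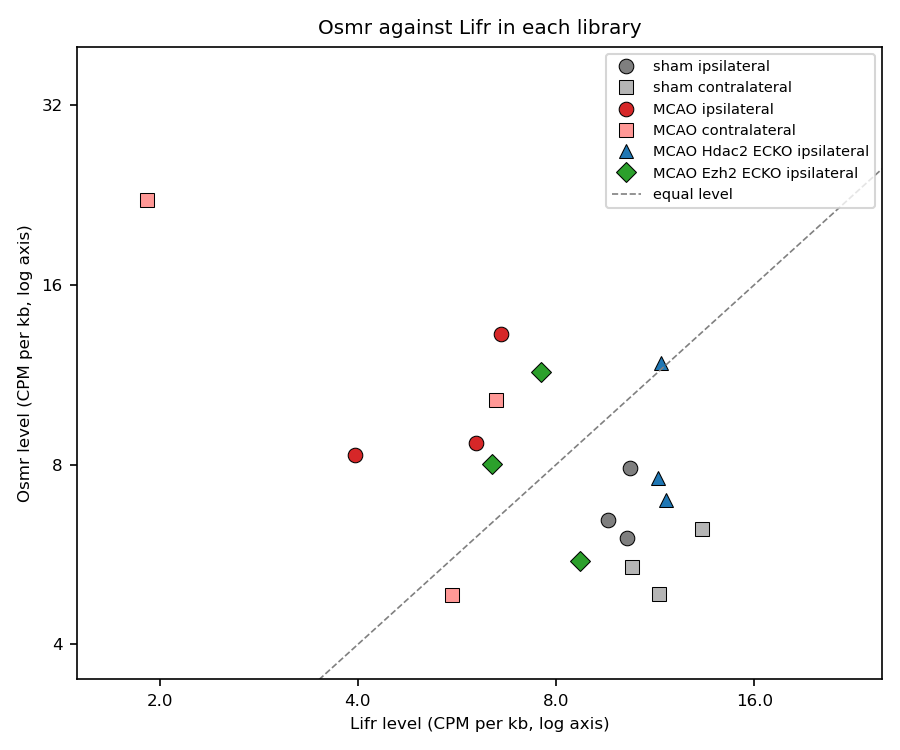
Level of Osmr (vertical) against Lifr (horizontal) in each of the 18 libraries, both in CPM per kb on log axes, by group; the dashed line marks equal levels. The 6 sham libraries lie to the lower right of the line and 5 of the 6 MCAO libraries to the upper left, with MCAO contralateral replicate 1 farthest out at a ratio of 11.6.

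The kinases had small log2 differences between MCAO and sham. Jak1 (chromosome 4, 101152367 to 101265282) averaged 71.8 ± 5.49 CPM (ipsilateral) and 65.9 ± 2.85 CPM (contralateral) in sham, and 68.9 ± 17.1 and 72.1 ± 10.5 CPM after MCAO (SD, n = 3 each). Jak2 (chromosome 19, 29251828 to 29313080) averaged 70.4 ± 12.9, 68.4 ± 4.75, 68.1 ± 3.24 and 55.4 ± 4.20 CPM in the same order. Contralaterally all 3 MCAO libraries (50.7 to 58.7 CPM) were below all 3 sham libraries (63.0 to 71.9 CPM) for Jak2, and on the ipsilateral side they overlapped. Over both sides the log2 differences, MCAO minus sham, were 0.03 ± 0.31 for Jak1 and −0.18 ± 0.23 for Jak2 (SE, edgeR adjusted p = 0.996 and 0.931). The widest spreads were in the deletion groups. Jak1 was at 88.5, 83.8 and 24.3 CPM in the Hdac2 ECKO-labelled libraries and at 93.9, 106 and 28.3 CPM in the Ezh2 ECKO-labelled set. The lowest library of each group, replicate 3, lay far below every other Jak1 value, the next being 50.5 CPM. In Hdac2 ECKO replicate 3 Jak2 was at 98.2 CPM, its highest level, and the per-kilobase ratio of Jak1 to Jak2 was 0.172, against 1.17 and 1.38 in the other libraries of that group.

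Stat3 (chromosome 11, 100885098 to 100939540), the transcription factor downstream of gp130, was at 42.5, 36.7 and 37.9 CPM in sham ipsilateral and at 77.1, 43.1 and 51.9 CPM in MCAO ipsilateral. It was at 34.6, 28.3 and 34.6 CPM in sham contralateral and at 59.2, 58.4 and 47.4 CPM in MCAO contralateral. Each of the 6 MCAO libraries lay above each of the 6 sham libraries, although the nearest were 43.1 and 42.5 CPM. The log2 difference over both sides was 0.66 ± 0.23 (SE, edgeR adjusted p = 0.300).

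Socs3 (chromosome 11, 117966079 to 117970047), the feedback inhibitor whose promoter window holds the STAT motif, was at 7.79, 7.10 and 11.3 CPM in sham ipsilateral and at 20.1, 16.7 and 26.8 CPM in MCAO ipsilateral. It was at 6.13, 5.51 and 7.59 CPM in sham contralateral and at 14.8, 9.84 and 25.2 CPM in MCAO contralateral. MCAO and sham libraries did not overlap within either side, and across the sides MCAO contralateral replicate 2 was below sham ipsilateral replicate 3. The log2 differences were 1.28 ± 0.51 ipsilateral and 1.37 ± 0.51 contralateral (SE, edgeR adjusted p = 0.645 and 0.920). Over both sides the difference was 1.33 ± 0.36, or 2.51-fold (adjusted p = 0.161).

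Pim3 (chromosome 15, 88862186 to 88865726) was at 24.2, 14.2 and 17.6 CPM in sham ipsilateral and at 84.5, 67.0 and 37.7 CPM in MCAO ipsilateral. It was at 23.0, 9.41 and 15.8 CPM in sham contralateral and at 26.4, 49.9 and 33.3 CPM in MCAO contralateral. Every MCAO library lay above every sham library, with the highest levels on the ipsilateral side. The log2 differences were 1.76 ± 0.44 ipsilateral and 1.18 ± 0.43 contralateral (SE, edgeR adjusted p = 0.442 and 0.920). Over both sides the difference was 1.47 ± 0.31, or 2.77-fold (adjusted p = 0.0603). Pim1 (chromosome 17, 29490753 to 29496112) was at 5.48, 9.03 and 10.5 CPM in sham ipsilateral and at 15.6, 8.34 and 11.7 CPM in MCAO ipsilateral, and the groups overlapped. Per kilobase, Pim3 exceeded Pim1 by 3.53 ± 2.23 times in sham ipsilateral and by 7.71 ± 3.33 times in MCAO ipsilateral (SD, n = 3 each). Across the 18 libraries the log2 level of Pim3 had a correlation of −0.51 with the background counts, and that of Pim1 −0.48.

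Of the 9 genes, 0 passed an adjusted p of 0.05 in MCAO against sham on the ipsilateral side (edgeR quasi-likelihood test), where 0% of all 17094 genes were called. At an unadjusted p under 0.05 the count was 3 of 9, against 7.08% of all genes. DESeq2 called 1, Pim3, beside 71 of all genes. On the contralateral side 0 were called, against 0% of all genes, with 5 at an unadjusted p under 0.05 against 4.41%. DESeq2 called 0 there, beside 26 of all genes. Averaged over the sides edgeR called 0, against 0.152% of all genes, with 5 at an unadjusted p under 0.05 against 9.09%. There DESeq2 called 4: Lifr, Stat3, Socs3 and Pim3. How many of all genes DESeq2 called in that comparison is not given here, and the most over all fits was 498. The MCAO and sham libraries did not overlap for 5 members ipsilaterally (27.7% of all genes), 4 higher (13.3%) and Lifr lower (14.4%). They did not overlap for 5 contralaterally (9.65%), 3 higher (3.65%) and 2 lower, Lifr and Jak2 (6%), and for 3 over both sides (1.42%), namely Stat3 and Pim3 higher (0.421%) and Lifr lower (1%). The median log2 difference of the 9 genes over both sides was 0.47, beside 0.06 for all genes tested. The 10 endothelial markers summed to between 14800 and 16150 CPM in sham ipsilateral and between 19340 and 28600 CPM in MCAO ipsilateral, without overlap. Of the 10, 5 had a positive log2 difference ipsilaterally, and contralaterally the sums overlapped. Their part in the values of the 9 genes was not tested. In counts simulated for the comparison over both sides, 0.5% of 200 genes given a log2 change of 1 were recovered, and 41.5% of 200 given a change of 2. Those genes were drawn from all 17094 kept, whatever their level. The shares therefore do not say how often a change in the 9 genes would be called.

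MCAO ipsilateral against MCAO contralateral gave 0 calls among the 9 (0% of all genes), as did sham ipsilateral against sham contralateral (0%) and the test of whether the occlusion difference depends on the side (0%). At an unadjusted p under 0.05 the count was also 0 of 9 in each, against 3.08%, 1.85% and 3.38% of all genes. DESeq2 called 0 of the 9 in each, beside 6 of all genes in each. The widest gap was that of Pim3, 0.79 ± 0.43 higher on the ipsilateral side after MCAO on the log2 scale (SE, edgeR adjusted p = 1.0). The libraries of the MCAO sides did not overlap for 1 member (5.37% of all genes), which was higher ipsilaterally (3.49%, against 1.88% lower). Those of the sham sides did not overlap for 2 (15.4%), 1 higher (8.44%) and 1 lower (6.98%) ipsilaterally. With 3 libraries a group these tests do not show that the sides are alike.

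**Figure D3:**
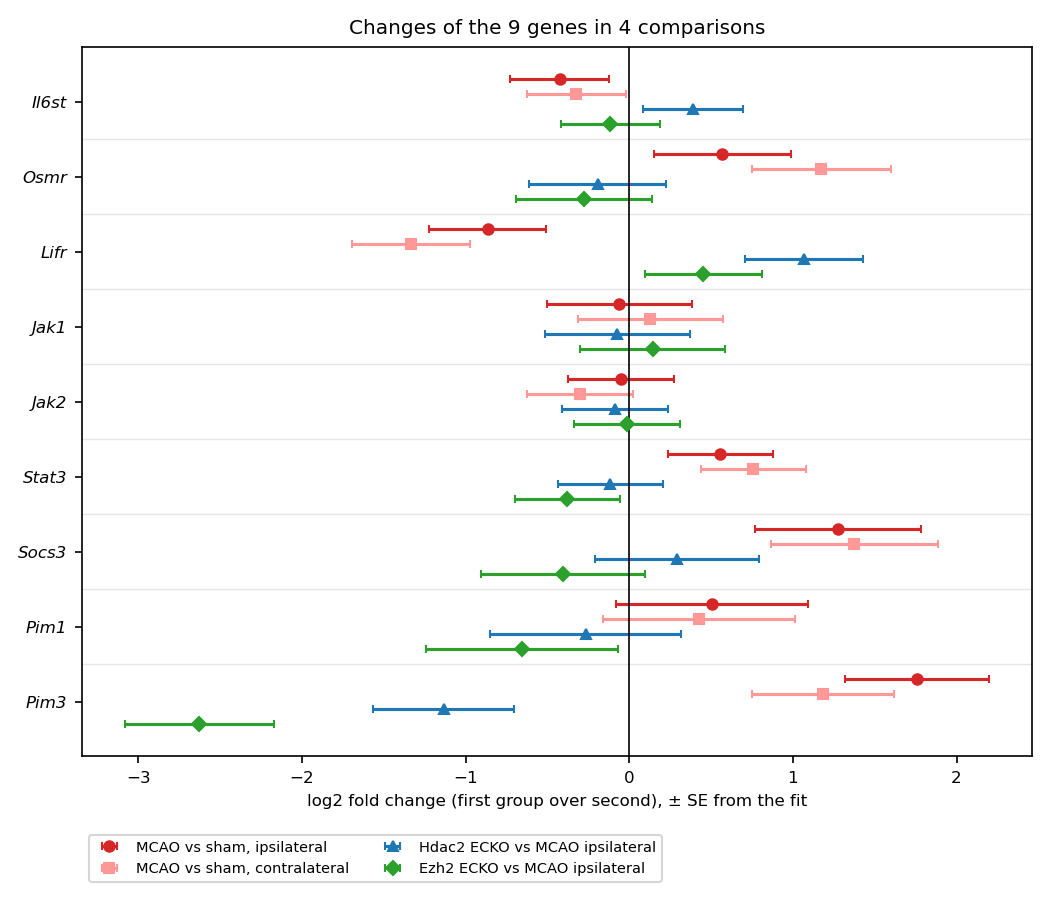
Log2 fold change of each of the 9 genes with its SE from the edgeR fit, in 4 comparisons of 3 libraries against 3; values right of 0 are higher in the first-named group. The MCAO differences lie to the right for Pim3, Socs3, Stat3 and Osmr and to the left for Lifr, and the difference farthest from 0 is Pim3 in Ezh2 ECKO against MCAO ipsilateral, −2.63 in log2.

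In the Hdac2 ECKO-labelled libraries, taken from the occluded side, Lifr and Pim3 stood away from MCAO ipsilateral. Lifr was at 123, 127 and 125 CPM, above all 3 MCAO ipsilateral libraries and within the range of the sham libraries, and its 3 values were closer together than those of any other group. Its log2 difference was 1.07 ± 0.36 (SE, edgeR adjusted p = 0.405). Pim3 was at 23.7, 32.8 and 29.8 CPM, below all 3 MCAO ipsilateral libraries, a log2 difference of −1.13 ± 0.43 (adjusted p = 0.429). Socs3 was at 41.1, 14.8 and 21.9 CPM, which includes its highest level in any library, and overlapped MCAO ipsilateral. Il6st was at 94.2, 70.8 and 83.5 CPM, Stat3 at 54.9, 44.5 and 59.4 CPM and Osmr at 92.2, 84.7 and 143 CPM, all overlapping MCAO ipsilateral. Of the 9 genes 0 were called by edgeR, against 0.0117% of all genes, with 2 at an unadjusted p under 0.05 against 9.85%. DESeq2 called 1, Lifr (adjusted p = 0.0469), beside 239 of all genes. The groups did not overlap for 2 of the 9, beside 19.9% of all genes, with Lifr higher (9.54%) and Pim3 lower (10.3%).

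The libraries labelled Hdac2 ECKO also had the highest group mean of the summed level of 10 immediate early genes, with 3337 to 4609 CPM against 1622 to 2894 CPM in MCAO ipsilateral. MCAO contralateral replicate 3, at 4307 CPM, and Ezh2 ECKO replicate 1, at 3370 CPM, lay within that range. These genes are induced rapidly by many stimuli. Across the 18 libraries the log2 level of Socs3 had a correlation of 0.56 with that sum, the highest among the 9 genes. Red cell transcripts, 7 genes, summed to between 49320 and 297800 CPM in the same group and to between 38260 and 65430 CPM in MCAO ipsilateral. The part of either in the values of the 9 genes was not tested.

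In the Ezh2 ECKO-labelled libraries, Pim3 was the member that was called. It was at 12.3, 7.22 and 11.1 CPM, against 84.5, 67.0 and 37.7 CPM in MCAO ipsilateral, and all 3 values were also below every sham ipsilateral library. The log2 difference was −2.63 ± 0.45, a 6.18-fold lower level (SE, n = 3 against 3, edgeR adjusted p = 0.0208). Called members were 1 of 9, beside 1.46% of all genes, and members at an unadjusted p under 0.05 were also 1 of 9, beside 19.2%. The groups did not overlap for 1 of the 9, beside 29% of all genes (15.3% lower). The call did not hold with the background counts as a covariate (−2.30 ± 0.44, adjusted p = 0.0574). It was also lost without MCAO ipsilateral replicate 1 (0.0778) or 2 (0.105), or without Ezh2 ECKO replicate 2 (0.0527) or 3 (0.0828), the direction staying the same.

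Marker sums also differed in that comparison. Endothelial markers summed to between 12180 and 14650 CPM in the Ezh2 ECKO-labelled libraries and between 19340 and 28600 CPM in MCAO ipsilateral, red cell transcripts to between 71.0 and 671 CPM and between 38260 and 65430 CPM, and microglia and macrophage markers to between 4.44 and 17.7 CPM and between 8.96 and 25.4 CPM. Neutrophil markers summed to between 2.96 and 3.85 CPM against 8.39 to 12.6 CPM, and platelet markers to between 17.4 and 29.6 CPM against 34.8 to 39.2 CPM. The groups did not overlap for the endothelial, red cell, neutrophil and platelet sums and overlapped for the microglia and macrophage sum. Their part in the Pim3 value, and in the values of the STAT3 target genes given further on, was not tested. Without the 2 libraries of highest background, which include Ezh2 ECKO replicate 2, the Pim3 difference was −2.41 ± 0.46 (adjusted p = 0.0125).

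The other members in the Ezh2 ECKO-labelled libraries overlapped MCAO ipsilateral. Lifr was at 81.9, 68.9 and 93.8 CPM, between MCAO and sham, with a log2 difference of 0.45 ± 0.36 (SE, edgeR adjusted p = 0.468). Socs3 was at 16.5, 9.95 and 21.5 CPM (−0.40 ± 0.50) and Stat3 at 51.4, 34.1 and 46.7 CPM (−0.38 ± 0.32). Pim1 was at 12.2, 2.96 and 7.38 CPM (−0.66 ± 0.59), and its lowest value in any library came from Ezh2 ECKO replicate 2. Osmr was at 139, 97.0 and 66.8 CPM (−0.28 ± 0.42).

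Set directly against each other, the deletion groups were farthest apart for Pim3, whose level was higher in the Hdac2 ECKO-labelled libraries by 1.49 ± 0.44 on the log2 scale (SE, edgeR adjusted p = 0.179). Lifr was higher there by 0.61 ± 0.36 and Il6st by 0.50 ± 0.30, and for these 3 genes the groups did not overlap, beside 12.1% of all genes. None of the 9 was called by edgeR, a count of 0 against 0.123% of all genes, with 1 at an unadjusted p under 0.05 against 11.2%. DESeq2 called 1, Pim3, beside 647 of all genes. Both deletion comparisons share the MCAO ipsilateral libraries, so their values for Pim3, −1.13 and −2.63, and for Lifr, 1.07 and 0.45, are not independent of each other.

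The order of group means shows where neighbouring groups were apart. For Lifr it ran sham contralateral, Hdac2 ECKO, sham ipsilateral, Ezh2 ECKO, MCAO ipsilateral and MCAO contralateral, with 126, 125, 109, 81.5, 59.6 and 50.1 CPM. The libraries did not overlap between Hdac2 ECKO and sham ipsilateral or between sham ipsilateral and Ezh2 ECKO, and the other neighbours in that order overlapped. For Pim3 the order was MCAO ipsilateral, MCAO contralateral, Hdac2 ECKO, sham ipsilateral, sham contralateral and Ezh2 ECKO, with 63.1, 36.5, 28.7, 18.7, 16.1 and 10.2 CPM, and all neighbours overlapped. For Socs3 it was Hdac2 ECKO, MCAO ipsilateral, MCAO contralateral, Ezh2 ECKO, sham ipsilateral and sham contralateral, with 25.9, 21.2, 16.6, 16.0, 8.75 and 6.41 CPM, again with overlap between all neighbours. For Stat3 the sham groups, at 39.0 and 32.5 CPM, were the only neighbours that did not overlap.

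The ligands of the pathway were barely present in these endothelial libraries. Of 11 gp130 cytokine genes, 9 passed the filter on low counts, and the 11 summed to between 0.450 and 6.26 CPM per library. Il6 itself, the founding ligand, lay between 0 and 0.853 CPM. In MCAO against sham over both sides 0 of 9 were called by edgeR in either direction, beside 0.152% of all genes, and 0 by DESeq2. At an unadjusted p under 0.05 there was 1, lower, beside 9.09% of all genes in either direction. Cntf, which signals through Lifr and gp130, was at 2.09 ± 1.08 CPM in sham contralateral and 0.0982 ± 0.134 CPM in MCAO contralateral (SD, n = 3 each, edgeR adjusted p = 0.920). Clcf1, a ligand of the same receptor, was at 1.25 ± 1.40 and 0.141 ± 0.0974 CPM in those groups (adjusted p = 0.920).

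Other receptor chains were measured for 5 genes, and 0 were called by edgeR in any of the 9 comparisons, beside 0% to 1.46% of all genes. At an unadjusted p under 0.05 there were 0 to 2, beside 1.85% to 19.2% of all genes, and DESeq2 called at most 1. Il6ra, the chain that gives gp130 its response to interleukin-6, was at 61.0, 34.4 and 75.2 CPM in the Hdac2 ECKO-labelled libraries and at 30.8, 16.4 and 29.2 CPM in MCAO ipsilateral, with no overlap (log2 difference 1.16 ± 0.40, SE, edgeR adjusted p = 0.405). Il11ra1, the interleukin-11 receptor chain, was at 3.26, 1.68 and 0.643 CPM in the Ezh2 ECKO-labelled libraries and at 9.55, 13.6 and 5.50 CPM in MCAO ipsilateral (−2.35 ± 0.72, adjusted p = 0.0869).

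Among 8 other JAK and STAT genes and 15 feedback regulators and phosphatases, 0 were called in any comparison by edgeR, beside 0% to 1.46% of all genes. At an unadjusted p under 0.05 there were at most 1 and 2 in a comparison, beside 1.85% to 19.2% of all genes. DESeq2 called at most 1 and 0. The medians over both sides were −0.08 and 0.08 on the log2 scale, beside 0.06 for all genes. Jak3 was at 11.3, 9.98 and 8.83 CPM in the Ezh2 ECKO-labelled libraries and at 29.1, 16.3 and 29.7 CPM in MCAO ipsilateral (−1.32 ± 0.43, SE, edgeR adjusted p = 0.104). Stat4, a transcription factor of immune cells, was at 1.60 CPM or lower in every library. Ptpn11, the phosphatase SHP2 that docks at the same gp130 site as SOCS3, was at 51.4, 53.9 and 78.4 CPM in the Ezh2 ECKO-labelled libraries and at 28.9, 21.4 and 26.4 CPM in MCAO ipsilateral (1.26 ± 0.49, adjusted p = 0.167). Socs1 was at 0.216, 0.455 and 0.503 CPM against 1.32, 5.47 and 2.54 CPM (adjusted p = 0.212). Pim2, the remaining Pim kinase, was at 0.108, 0.0569 and 0.224 CPM against 2.19, 0.618 and 0.765 CPM (−3.17 ± 1.29, adjusted p = 0.184). In those Ezh2 ECKO-labelled libraries 3 counts corresponded to 0.0809, 0.0853 and 0.0838 CPM, so Pim2 was near the floor. Pim2 and Pim3 had their lowest group mean there. Pim1 had its next to lowest there, and its libraries overlapped MCAO ipsilateral.

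A list of 19 genes known as STAT3 targets, chosen with earlier results of these data known, held 4 of the genes called after occlusion. Its counts and medians, here and below, like those of the other lists, are therefore descriptions and no test of the pathway. Over both sides 4 of 19 were called higher and 0 lower, beside 0.123% and 0.0293% of all genes, and the median log2 difference was 1.08 beside 0.06 for all genes. Microglia and macrophage markers, which summed to between 2.91 and 6.23 CPM in sham ipsilateral and between 3.17 and 8.34 CPM in sham contralateral, summed to between 8.96 and 25.4 CPM and between 7.15 and 17.3 CPM after MCAO, without overlap ipsilaterally. Platelet markers summed to between 17.8 and 23.7 CPM in sham ipsilateral and between 34.8 and 39.2 CPM in MCAO ipsilateral, and overlapped contralaterally. The part of either in these values was not tested. Cebpd, a transcription factor of the acute-phase response, was at 31.1, 20.7 and 28.2 CPM in sham ipsilateral and at 108, 102 and 44.6 CPM in MCAO ipsilateral. It rose by 1.52 ± 0.29 on the log2 scale over both sides (SE, edgeR adjusted p = 0.0314). Lcn2, an iron-binding acute-phase protein, rose by 4.04 ± 0.70 (adjusted p = 0.0230), from 1.36 to 4.63 CPM in the sham libraries to 32.0 to 71.4 CPM in the MCAO libraries. The remaining called genes, Lrg1 and Serpina3n, are named for completeness after their values were seen. Lrg1, a secreted glycoprotein that acts on vessels, was at 0 to 1.06 CPM in sham and 0 to 104 CPM in MCAO libraries (adjusted p = 0.0314), and Serpina3n, a protease inhibitor, at 0 to 0.134 and 0.526 to 3.51 CPM (0.0406).

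The same list had a negative median in the Ezh2 ECKO-labelled libraries against MCAO ipsilateral, where 0 of 19 were called higher and 2 lower, beside 0.228% and 1.23% of all genes. The median was −1.25, beside 0.17 for all genes. Bcl2l1, which encodes the survival protein BCL-XL, was at 106, 152 and 50.1 CPM in MCAO ipsilateral and fell to 20.4, 15.0 and 14.2 CPM (−2.63 ± 0.44, SE, edgeR adjusted p = 0.0188). Lcn2 fell from 58.2, 61.2 and 32.0 CPM to 2.32, 0 and 0.0559 CPM (adjusted p = 0.0208). In the Hdac2 ECKO-labelled libraries 0 were called by edgeR in either direction, beside 0.0117% of all genes. At an unadjusted p under 0.05 there were 2 higher and 4 lower, beside 9.85% of all genes. DESeq2 called 1 lower, beside 239 of all genes. The median was −0.53, beside 0.11 for all genes. There Bcl2l1 was at 17.2, 27.3 and 13.3 CPM, also below all MCAO ipsilateral libraries (−2.41 ± 0.44, adjusted p = 0.0639). Over both sides 15 of the 19 genes had a positive log2 difference, and the others were Fos (−0.19), Vegfa (−0.16), Ccnd1 (−0.13) and Hif1a (−0.09), of which 0 passed the test. Fos and Junb are also immediate early genes.

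The calls of the list depended on which libraries were used, as did those over all genes. Over both sides the latter ran from 0, without sham contralateral replicate 1, to 498, without the 2 libraries of highest background. For Ezh2 ECKO they ran from 5, without MCAO ipsilateral replicate 1, to 1617 with DESeq2. The list's counts that follow are not set against a share in each fit. Over both sides 0 of 19 were called with the replicate numbers as a block, and 0 without any 1 of the 6 sham libraries, without MCAO ipsilateral replicate 1 or 2, or without MCAO contralateral replicate 2. There was 1 call without Hdac2 ECKO replicate 2, 2 without the filter on low counts, 2 with the sides summed, and 7 without the 2 libraries of highest background or with DESeq2. For Ezh2 ECKO there were 0 without MCAO ipsilateral replicate 1 or 2 or Ezh2 ECKO replicate 3. Without Ezh2 ECKO replicate 2, with the block or with the background covariate there was 1. There were 6 without MCAO contralateral replicate 1, 3 without MCAO ipsilateral replicate 3 and 4 with DESeq2, which called 1617 of all genes. The list's median stayed above 0.84 over both sides and below −0.87 for Ezh2 ECKO in each of these.

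**Figure D4:**
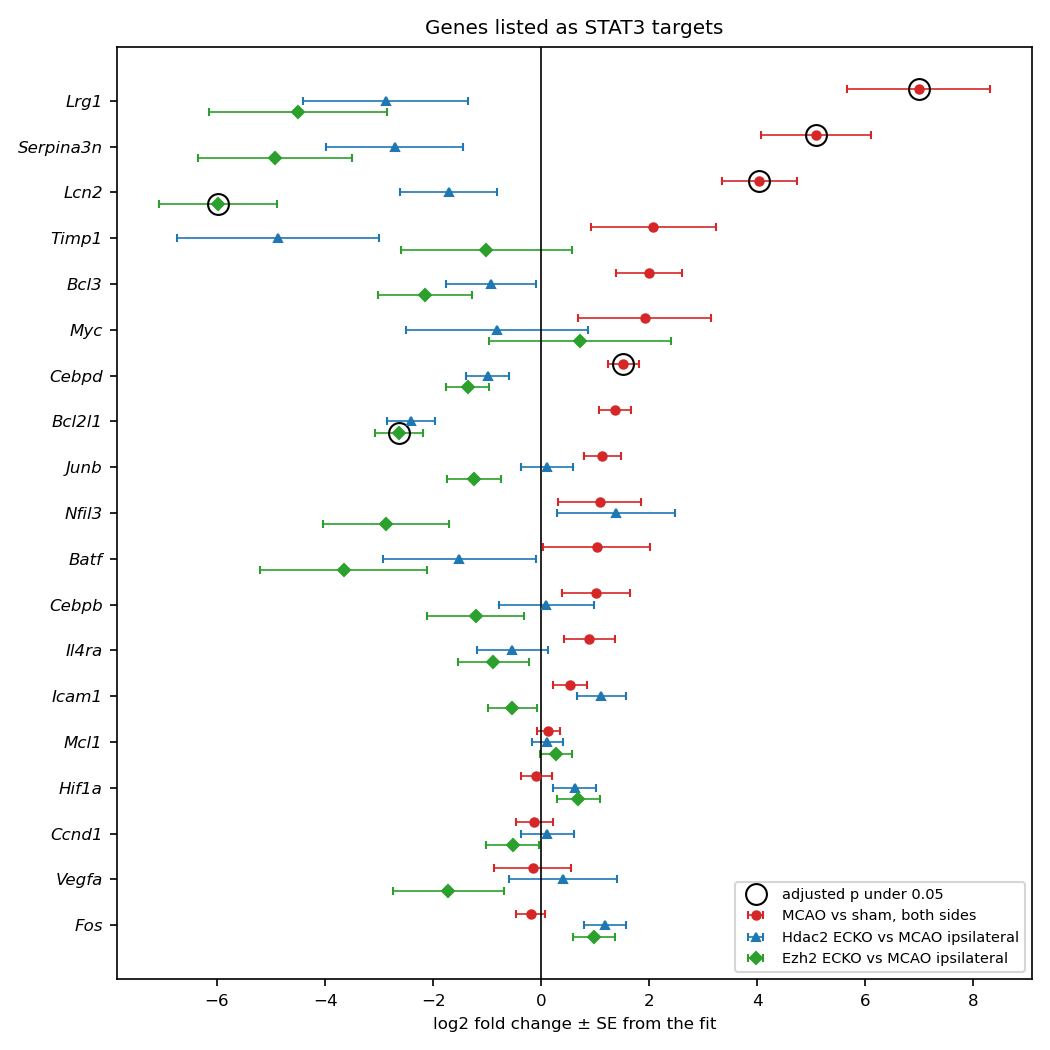
Log2 fold change with SE of 19 genes listed as STAT3 targets, ordered by MCAO against sham over both sides (6 libraries against 6), with Hdac2 ECKO and Ezh2 ECKO against MCAO ipsilateral (3 against 3); circles mark an adjusted p under 0.05. Lcn2 is circled in both MCAO against sham (4.04) and Ezh2 ECKO (−5.99), and these comparisons share the MCAO ipsilateral libraries.

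Of 10 immediate early genes 0 were called in any comparison by edgeR, beside 0% to 1.46% of all genes. At an unadjusted p under 0.05 there were 1 to 6, beside 1.85% to 19.2% of all genes. The 6 were reached against MCAO ipsilateral in Hdac2 ECKO, 6 higher (9.85% of all genes), and in Ezh2 ECKO, 4 higher and 2 lower (19.2%). DESeq2 called at most 2 of the 10, while its calls over all genes reached 1617. Fosb was at 355, 238 and 276 CPM in the Hdac2 ECKO-labelled libraries and at 82.2, 59.9 and 175 CPM in MCAO ipsilateral (1.46 ± 0.35, SE, adjusted p = 0.244). Atf3, a stress-induced transcription factor, was at 108, 136 and 267 CPM in MCAO contralateral and at 69.7, 63.1 and 73.5 CPM in MCAO ipsilateral (adjusted p = 1.0).

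Within the pathway, the levels of Stat3 and Socs3 had a Pearson correlation of 0.70 over the 18 libraries, Stat3 and Pim3 one of 0.67, Stat3 and Osmr 0.67, and Pim1 and Pim3 0.51, all on log2 CPM. Il6st had none above 0.36 with another member, and Jak1 and Jak2 had −0.41, with Hdac2 ECKO replicate 3 lowest for Jak1 and highest for Jak2. Among 7806 genes that averaged 10 CPM or more, those with the level pattern most like Stat3 were Galnt15 (r 0.83), Ch25h (0.78) and Kdm6b (0.75). Galnt15 averaged 43.6 CPM in sham ipsilateral, 96.1 in MCAO ipsilateral and 56.6 in Ezh2 ECKO, and Ch25h, a cholesterol hydroxylase induced in inflammation, averaged 9.02, 73.3 and 23.8 CPM. Those most like Socs3 were Scgb3a1 (r 0.80), Zfp36l2 (0.73) and Acsl5 (0.72). Zfp36l2, an RNA-binding protein that promotes decay of messenger RNA, averaged 71.6 CPM in sham ipsilateral, 106 in MCAO ipsilateral and 208 in Hdac2 ECKO. The libraries share groups and depth, so these correlations carry no test.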

How the data were processed

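RNA from sorted cortical endothelial cells was sequenced in 18 libraries, 6 groups of 3. The deposited table holds whole-number counts of reads per gene, and FastQC, cutadapt, STAR, featureCounts and DESeq2 and the build mm10 are named without versions or roles, per the submitters' processing notes. The file's name calls the counts normalized, but the deposited values are whole, with library totals from 25791401 to 57576255, and were used as counts. The strand setting and annotation are not given in the sources used here, so reads of a gene and of an antisense partner cannot be told apart. Between 77.3% and 89.4% of the counts from 1 to 20 were even, so counting error is larger than the counts imply.

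Genes with at least 10 counts in at least 3 libraries (17094) entered 1 edgeR fit (4.0.16, R 4.3.3, limma 3.58.1) of 6 group means with TMM scaling, the quasi-likelihood F-test and Benjamini-Hochberg adjustment over all of them, at a threshold of 0.05. The common biological coefficient of variation was 0.774. There were 9 comparisons, and SEs were derived from each log2 fold change and its F statistic. DESeq2 1.42.0, RLE scaling, no filter, a replicate block, a background covariate, halved counts, summed sides and leaving out each library were alternatives. The fit was tested on simulated data. Tables and plots were made with Python 3.11.15, pandas 2.3.3 and matplotlib 3.10.9.

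The members, gene lists and markers were chosen with earlier results of these data known. All 9 members are named. From each list the text names the called genes, at most 3 by smallest adjusted p, or with none called the 2 of smallest unadjusted p. Il6, Lrg1, Serpina3n, Fos, Vegfa, Ccnd1 and Hif1a are outside this rule and were named after their values were seen. For Stat3 and Socs3 the 3 genes of highest Pearson correlation are named. Coordinates are those of the deposited table (GRCm38).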

Additional observations from a re-analysis of the deposited data

How the results depend on the processing

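The 9 members gave 81 log2 differences, of which the 32 that were at least 1 SE from 0 were followed through the alternatives. DESeq2 called 1 member in MCAO against sham ipsilaterally, 4 over both sides, 1 in Hdac2 ECKO against MCAO ipsilateral and 1 in Hdac2 ECKO against Ezh2 ECKO, where edgeR called 0. Over both sides edgeR called 2 with RLE scaling, 2 with the background covariate, 1 with counts halved and 3 without the 2 libraries of highest background, a choice made after seeing the data. That last fit called 498 of all genes, beside 26 in the main edgeR fit. For the scaling, covariate and halved-count fits the calls over all genes are not given here, so their counts are not read against a share. In Ezh2 ECKO against MCAO ipsilateral the covariate left 0 members called. Leaving out each library gave 0 to 2 calls over both sides, with 2 (Lifr and Pim3) without MCAO contralateral replicate 1 and 1 without MCAO ipsilateral replicate 3 or Ezh2 ECKO replicate 2, and 0 to 1 in Ezh2 ECKO against MCAO ipsilateral. The Osmr side difference, −0.61, was 0.10 without the 2 libraries of highest background and ran from −0.99 to 0.11 over the fits that leave out 1 library, turning without MCAO contralateral replicate 1; the cause was not tested.

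With the replicate number as a block, the count of members called stayed at 0, or at 1 for Ezh2 ECKO against MCAO ipsilateral, while genes called went from 26 to 4 over both sides and from 250 to 12 in that comparison. Of 45 same-number pairs over all groups 10 correlated above 0.1. Between the sides of sham and of MCAO 4 of 6 did (median 0.31), and replicates 1 and 2, but not 3, were each closest to their own number. The labels do not say whether the sides share a mouse, so the comparison over both sides may count some animals on each side; with the sides of a number summed, 3 against 3, edgeR called 0 members. Over all alternatives the genes called ranged from 0 to 498 over both sides, from 0 to 239 for Hdac2 ECKO (2 in the edgeR fit), from 5 to 1617 for Ezh2 ECKO and from 7 to 647 between the deletion groups (21 in the edgeR fit), and DESeq2 called 71 ipsilaterally and 26 contralaterally. RLE scaling moved the median of all genes in Ezh2 ECKO from 0.17 to 0.36 in log2. The members had at least 104 counts in each library.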
